A study of Mus musculus with 8 samples.

Results

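The 8 genes described here encode receptors for acetylcholine: the muscarinic receptors Chrm1, Chrm2, Chrm3 and Chrm4, and the nicotinic subunits Chrna3, Chrna4, Chrna7 and Chrnb2. They were taken by name from the 38924 genes of the deposited tables and not by a rule on their measured values. Earlier results of these data were known when they were chosen. Each of the 8 was found in the tables. Of these, 6 had enough reads to be tested, and Chrm1 and Chrm4 did not.

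Messenger RNA attached to ribosomes was sequenced from 8 whole mouse spinal cords by RiboTag, in which Cre recombinase switches on an HA tag on the ribosomal protein Rpl22 so that ribosomes of Cre-expressing cells can be pulled down with an antibody. Cre was driven by Chat, the gene for the enzyme that makes acetylcholine, so the tag marks every cholinergic cell of the cord and not motor neurons alone. The 4 groups of 2 animals were Cre with a crushed sciatic nerve (animals 35 and 52, aged 18 and 9 weeks), no Cre with a crushed nerve (51 and 58, both 9 weeks), Cre uncrushed (10 and 3, both 8 weeks) and no Cre uncrushed (4 and 6, both 8 weeks). All mice carried 1 Rpl22 tag allele (Rpl22 +/-) on a B6.CgxB6.129 background, and the series describes them as Gars+/+, wild type for glycyl-tRNA synthetase. The entry for the Cre allele is Chat +/- for Cre and Chat +/+ for no-Cre animals. This entry runs against the title in 2 uncrushed libraries, Cre animal 3 and no-Cre animal 4.

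The no-Cre precipitates have no tagged ribosomes, so they hold RNA that comes down from all cells of the cord without a tag. The nerve was crushed on 1 side only and the whole cord was used, so tagged cells of uninjured segments and of the other side are in every crushed library. How long after the crush the cords were taken is not stated in these sources. Crush cannot be told apart from age, nor from a number shared by the titles of all uncrushed libraries. In such bulk precipitates, fewer cells of a type and less RNA per cell cannot be told apart.

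Library totals ran from 4826979 to 11522721 estimated reads. Mitochondrial ribosomal RNA made up 1.61 to 5.53% of the Cre libraries and 11.47 to 48.21% of the no-Cre libraries. The summed level of 7 cholinergic motor neuron markers, Chat among them, was 1690 to 2060 counts per 1000000 (CPM, scaled by edgeR's TMM factors) in the Cre libraries and 63.2 to 163 CPM in the no-Cre libraries. In the libraries with a contradictory entry it was 2060 CPM (Cre uncrushed animal 3) and 163 CPM (no-Cre uncrushed animal 4), so both stood with their titles. For the 6 tested receptor genes, Cre against no-Cre results are also given without these libraries where the call differs. That leaves only Cre animal 10 and no-Cre animal 6 uncrushed. The errors of the uncrushed comparison then rest on the spread of the crushed libraries. Tests of other named genes are given only with them.

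Acetylcholine acts through unrelated kinds of receptor. Muscarinic receptors are single-chain receptors coupled to G proteins: Chrm2 and Chrm4 signal through Gi/o, which lowers cyclic AMP and opens GIRK potassium channels, and Chrm1 and Chrm3 through Gq, phospholipase C and closure of the M-current channels. Nicotinic receptors are ion channels built of several subunits: Chrna4 and Chrnb2 make up the high-affinity receptor of the brain, Chrna3 is the ganglionic subunit, usually paired with Chrnb4, and Chrna7 forms channels made of that subunit alone. On spinal motor neurons the best known of these receptors is the M2 receptor, the product of Chrm2, which sits under the large cholinergic C-bouton synapses that spinal interneurons make on the cell body. Renshaw cells, the interneurons that motor axon branches excite in the cord, carry nicotinic receptors that include Chrna4 and Chrnb2.

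Of the 8 genes, 7 have an entry in the RefSeq promoter table (build GRCm38.p6). The 250 bases upstream of the annotated start are shown for the 3 genes on which the comparison of tagged and untagged RNA turns: Chrm2 and Chrnb2, which were higher with Cre, and Chrna4, which was lower. Each is printed 5' to 3' on the gene's own strand, and capitals mark 3 short motifs searched on both strands: the GC box GGGCGG, the E-box CANNTG and the homeodomain core ATTA.
Chrm2, chr6:36387834-36388083, plus strand: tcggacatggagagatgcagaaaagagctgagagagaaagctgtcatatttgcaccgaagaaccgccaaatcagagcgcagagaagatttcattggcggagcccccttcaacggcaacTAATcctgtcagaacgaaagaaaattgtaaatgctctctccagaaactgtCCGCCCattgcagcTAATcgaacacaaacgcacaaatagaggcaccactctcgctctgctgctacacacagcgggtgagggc
Chrnb2, chr3:89764633-89764882, minus strand: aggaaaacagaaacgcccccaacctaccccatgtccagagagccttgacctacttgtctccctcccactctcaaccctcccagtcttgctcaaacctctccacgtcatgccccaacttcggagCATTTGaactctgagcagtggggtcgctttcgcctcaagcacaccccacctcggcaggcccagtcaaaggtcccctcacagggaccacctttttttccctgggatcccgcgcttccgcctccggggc
Chrna4, chr2:181039178-181039427, minus strand: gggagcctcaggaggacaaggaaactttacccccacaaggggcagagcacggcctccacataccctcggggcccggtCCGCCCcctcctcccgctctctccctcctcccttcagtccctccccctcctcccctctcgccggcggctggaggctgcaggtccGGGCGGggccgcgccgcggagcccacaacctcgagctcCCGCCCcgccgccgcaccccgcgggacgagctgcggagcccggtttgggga
The Chrm2 window held 2 homeodomain cores, 132 and 68 bases before the start, and 1 GC box at 82 bases. The Chrna4 window held 3 GC boxes, at 173, 89 and 51 bases, and neither of the other motifs. The Chrnb2 window held 1 E-box, at 127 bases. Over all 32851 promoter windows of this length, 32.7% hold a GC box, 66.2% an E-box and 54.9% a homeodomain core, so each of these motifs is common. Guanine and cytosine made up 50% of the Chrm2 window, 59.6% of the Chrnb2 window and 74.4% of the Chrna4 window, against a median of 52.4% over all windows. A letter match is a description of the sequence and not evidence of a binding site.

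Chrm2, the M2 receptor gene (ENSMUSG00000045613), was the most abundant of the 8 in tagged RNA and was higher with Cre in both crush states. In crushed animals it stood at 125.32 and 116.14 CPM with Cre, against 32.03 and 31.65 CPM without. In uncrushed animals it stood at 99.14 and 143.84 CPM with Cre, against 15.21 and 22.97 CPM without. All 4 Cre libraries were above all 4 no-Cre libraries, and the lowest Cre value belonged to uncrushed animal 10. How many of all genes separate the libraries in this way was not counted, here or for the genes below. The difference was 3.79-fold in crushed animals (log2 1.92 ± 0.26, adjusted p = 0.000337) and 6.29-fold in uncrushed animals (log2 2.65 ± 0.28, adjusted p = 9.09e-05), by edgeR's quasi-likelihood test over 15208 genes. Without the libraries with contradictory entries the uncrushed difference was 2.15, from Cre animal 10 and no-Cre animal 6 alone. Here and below the value after ± is an approximate standard error for a log2 fold change and an SD for a level (n = 2 per group), and adjusted p is by the Benjamini-Hochberg method. An exon of Chrm2 overlaps the non-coding gene 9330158H04Rik on the opposite strand in GENCODE M21, and its estimated counts were whole numbers in 4 of 8 libraries, so reads that match both models may have been split between them.

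Chrm3, a Gq-coupled receptor gene (ENSMUSG00000046159), was scarce and lay on the other side of the comparison. In crushed animals it had 0.32 and 0.63 CPM with Cre, against 1.90 and 1.33 CPM without. With no crush the levels were 0.52 and 0.29 CPM with Cre, against 2.34 and 2.14 CPM without. All Cre values were below all no-Cre values, but they rest on 13 and 7 counts per Cre group (crushed and uncrushed) and 22 and 14 per no-Cre group. Neither single comparison passed the test: log2 -1.76 ± 0.88 in crushed (adjusted p = 0.124) and -2.44 ± 0.96 in uncrushed animals (adjusted p = 0.0598). Over all 8 libraries, with crush state as a covariate, it was lower with Cre by a log2 difference of -2.07 ± 0.64 (adjusted p = 0.0138). That call was lost without the libraries with contradictory entries (-1.79, adjusted p = 0.0653), and without Cre crushed animal 35, no-Cre crushed animal 51 or Cre uncrushed animal 3 alone (adjusted p = 0.0625 to 0.0729), as with library size alone (0.0561) or age as a covariate (0.0524). The Chrm3 model in the files is 1 transcript of 1770 bases, close to its coding length of 1767 bases in GENCODE M21, where the longest transcript has 4336 bases, so reads from most of the untranslated ends would not be counted.

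Chrm1 and Chrm4 were at the limit of detection in every group. Chrm1, a Gq-coupled receptor gene (ENSMUSG00000032773), had 2 and 3 counts with Cre against 3 and 0 without in crushed animals, and 0 and 3 with Cre against 1 and 2 without in uncrushed animals. Chrm4, the second Gi/o-coupled receptor gene (ENSMUSG00000040495), had 3 and 5 counts with Cre against 6 and 0 without in crushed animals, and 1 and 7 with Cre against 0 and 4 without in uncrushed animals. No difference between groups was detectable at this depth, where 3 counts correspond to 0.19 to 1.17 CPM depending on the library. These limits cover counting error only.

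**Figure D1:**
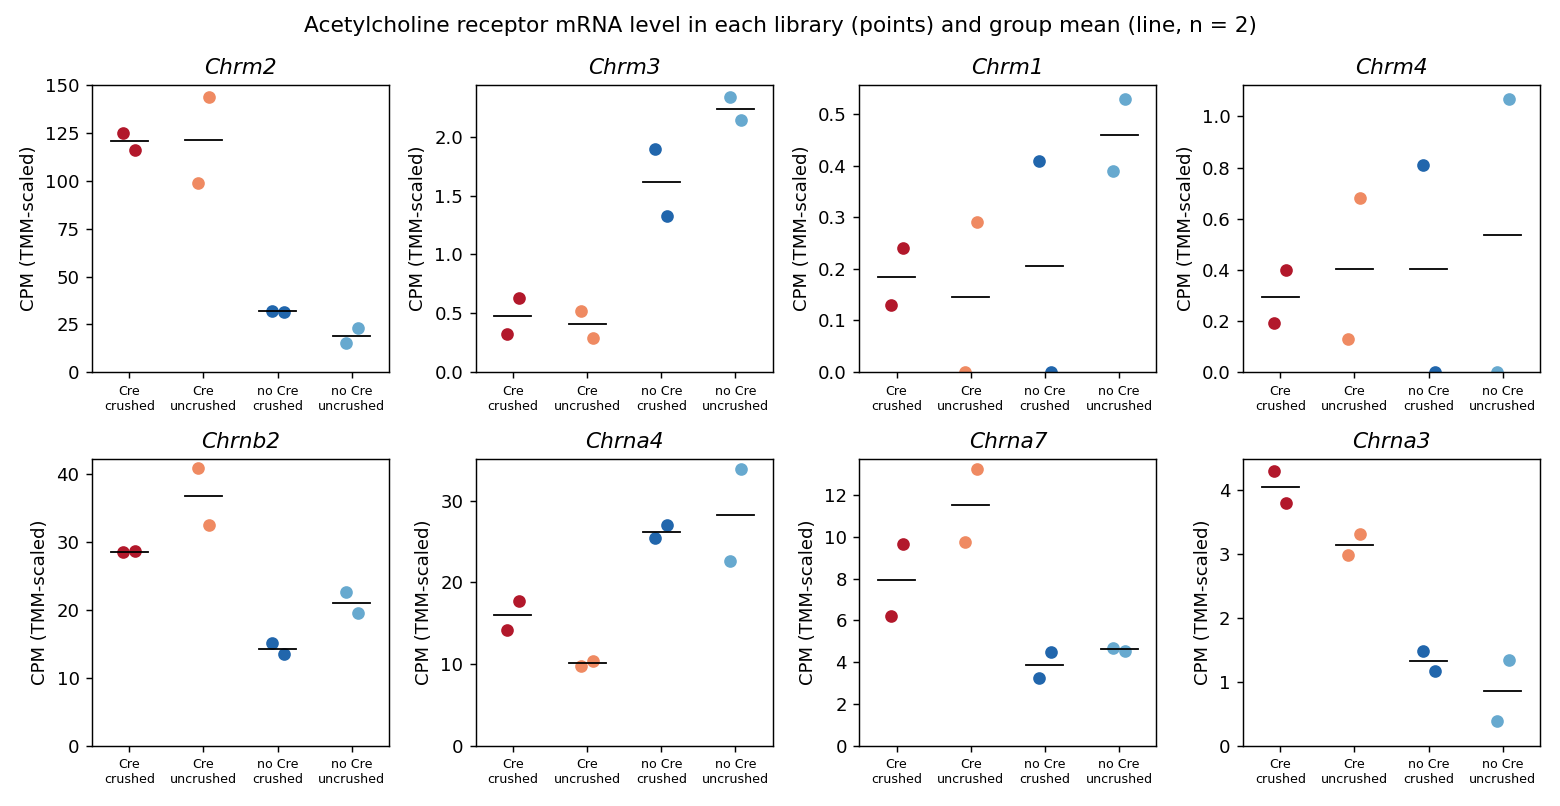
Level of each of the 8 receptor genes (CPM on TMM-scaled library sizes, linear axes from 0, each with its own range) in the 2 libraries of each group (points), with the group mean as a line. Chrm2 stands at 99.14 CPM or more in every Cre library and at 32.03 CPM or less in every no-Cre library. Chrna4 and Chrm3 show the opposite order, and Chrm1 and Chrm4 do not pass 1.07 CPM in any library.

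Among the nicotinic subunits, Chrnb2, the beta subunit that accompanies Chrna4 (ENSMUSG00000027950), was higher with Cre. It stood at 28.48 and 28.64 CPM in Cre crushed libraries, against 15.06 and 13.49 CPM in no-Cre crushed libraries. In uncrushed animals it stood at 40.85 and 32.53 CPM with Cre, against 22.62 and 19.50 CPM without. The groups did not overlap in either state, and the rise was 2.00-fold in crushed (log2 1.00 ± 0.25, adjusted p = 0.00873) and 1.75-fold in uncrushed animals (log2 0.80 ± 0.26, adjusted p = 0.0261). The crushed call was lost without Cre crushed animal 35 (adjusted p = 0.0625) and with age as a covariate (0.0667). The uncrushed call was lost without the libraries with contradictory entries, where the difference was 1.11 (adjusted p = 0.0503), and without Cre uncrushed animal 10, Cre uncrushed animal 3, no-Cre uncrushed animal 6 or Cre crushed animal 52 alone (adjusted p = 0.0503 to 0.155), with age as a covariate (0.0549) or in a fit of only the compared groups (0.0777). Age differed within a group only for Cre crushed animals 35 and 52 (18 and 9 weeks), and all uncrushed animals were 8 weeks old. The age term therefore takes up only the difference between that pair. It cannot adjust the uncrushed comparison for age, so these losses do not show a dependence on age. The 3' end of Chrnb2 overlaps an exon of Adar, an RNA-editing enzyme gene on the opposite strand, and whether counting used strand is not stated in these sources. The estimated counts of Chrnb2 and of Adar were whole numbers in 8 of 8 libraries, so the counts show no reads split between them. Adar was not called in crushed (log2 0.44 ± 0.32, adjusted p = 0.27) or uncrushed animals (0.67 ± 0.32, adjusted p = 0.116), and over all libraries it was higher with Cre by 0.55 ± 0.22 (adjusted p = 0.0431).

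Chrna4, the alpha subunit of the same high-affinity receptor (ENSMUSG00000027577), was on the opposite side. In crushed animals it stood at 14.18 and 17.72 CPM with Cre, against 25.38 and 26.99 CPM without. The uncrushed levels were 9.76 and 10.42 CPM with Cre, against 22.62 and 33.92 CPM without. Every Cre library was below every no-Cre library, and the uncrushed Cre libraries were lowest. Chrna4 was lower with Cre in uncrushed animals (log2 -1.49 ± 0.30, adjusted p = 0.00245) and over all libraries (-1.09 ± 0.23, adjusted p = 0.00123), and it missed the threshold in crushed animals (-0.72 ± 0.28, adjusted p = 0.058). With library size alone as the scale the uncrushed call was lost (-0.84 ± 0.45, adjusted p = 0.14), as was the call over all libraries (-0.70 ± 0.31, adjusted p = 0.0646). On that scale the median over all genes in uncrushed animals was 0.65 (log2), against -0.03 with TMM. Without the libraries with contradictory entries the uncrushed difference was -1.75, from Cre animal 10 and no-Cre animal 6 alone.

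The levels of Chrna4 lay on the same side as those of spinal interneurons. The summed level of 7 interneuron markers (Gad1, Gad2, Slc6a5, Slc32a1, Slc17a6, Pax2 and Lmx1b) was 198 to 271 CPM in the Cre crushed libraries and 468 to 591 CPM in the no-Cre crushed libraries. Among uncrushed animals it was 183 to 210 CPM with Cre and 599 to 665 CPM without. None of the 7 was at 0 in both libraries of a group. Glial sums moved the same way: 6 oligodendrocyte markers summed to 701 to 1790 CPM with Cre and 4410 to 7650 CPM without, and 6 astrocyte markers to 190 to 488 CPM with Cre and 1410 to 3060 CPM without. Their part in the lower Chrna4 and Chrm3 values was not tested.

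Chrna7, the subunit of the fast calcium-permeable channel (ENSMUSG00000030525), had 6.2 and 9.65 CPM with Cre in crushed animals, against 3.26 and 4.50 CPM without. Uncrushed animals had 9.76 and 13.24 CPM with Cre, against 4.68 and 4.54 CPM without. All Cre values were above all no-Cre values. It was 2.50-fold higher with Cre in uncrushed animals (log2 1.32 ± 0.43, adjusted p = 0.0291) and was not called in crushed animals (1.03 ± 0.41, adjusted p = 0.0596). The uncrushed call was lost without the libraries with contradictory entries (1.14 ± 0.57, adjusted p = 0.182), and without Cre uncrushed animal 3, no-Cre uncrushed animal 4 or no-Cre uncrushed animal 6 alone (adjusted p = 0.0632 to 0.156), and in a fit of only the compared groups (0.0634). Over all libraries Chrna7 was higher with Cre by 1.17 ± 0.29 (adjusted p = 0.0042).

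Chrna3, the ganglionic subunit (ENSMUSG00000032303), had 4.30 and 3.80 CPM with Cre in crushed animals, against 1.49 and 1.17 CPM without. Uncrushed animals had 2.99 and 3.31 CPM with Cre, against 0.39 and 1.34 CPM without. The Cre values were again all above the no-Cre values, which rest on 18 counts in the crushed and 6 in the uncrushed no-Cre group. Neither single comparison passed the test (crushed 1.59 ± 0.62, adjusted p = 0.0581; uncrushed 1.76 ± 0.73, adjusted p = 0.0722). Over all libraries Chrna3 was higher with Cre by 1.66 ± 0.47 (adjusted p = 0.00838).

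Counted together, 2 of the 6 tested receptor genes were called higher and 0 lower in crushed animals, where 42.9% of all 15208 genes were called (21.6% higher and 21.3% lower). In uncrushed animals 3 were called higher and 1 lower, where 42.5% of all genes were called (20.6% higher and 21.9% lower). Over all libraries 4 were higher and 2 lower, against 59.9% of all genes (28.7% higher and 31.2% lower). With so many genes called, the number of receptor genes called, or without overlap between Cre and no-Cre libraries, says little by itself. The median log2 fold change of the 6 was 1.02 in crushed and 1.06 in uncrushed animals, against -0.08 and -0.03 over all tested genes. Since all libraries share 1 estimate of the spread, leaving out an uncrushed library can also change calls in crushed animals. Without no-Cre uncrushed animal 4 or 6, 5 of the 6 genes were called in crushed animals, with Chrna3 and Chrna7 higher and Chrna4 lower in addition to Chrm2 and Chrnb2 (adjusted p = 0.0232 to 0.041 for the added genes). Chrna3 in crushed animals was also called without the libraries with contradictory entries (1.64, adjusted p = 0.0303) and in a fit of only the compared groups (1.63, 0.0266). Under these same settings Chrna7 was called in the first (1.08, adjusted p = 0.0494) and Chrna4 in the second (-0.67, 0.0492), and Chrna4 was called also with mitochondrial ribosomal RNA left out of the library size (-0.94, adjusted p = 0.0252), an alternative added after the data were seen. In uncrushed animals Chrna3 was called without no-Cre animal 6 (3.04, adjusted p = 0.0395) and with library size alone (2.40, adjusted p = 0.036).

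When libraries were grouped by the genotype entry in place of the title, no receptor gene was called in any of these comparisons, and none of the 15208 genes was. That regrouping moves only uncrushed animals 3 and 4. The crushed comparison then holds the same libraries, and its calls changed only through the fit it shares with the uncrushed ones.

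**Figure D2:**
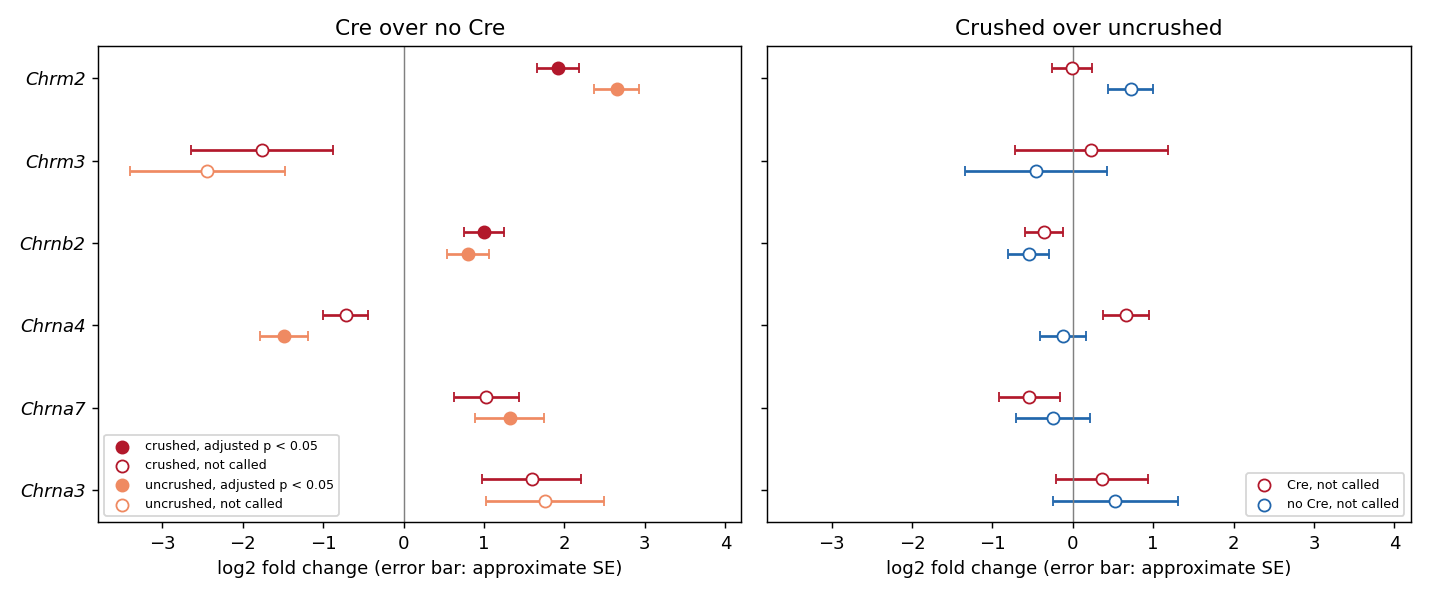
Log2 fold change of the 6 tested receptor genes with its approximate standard error (horizontal axis), for Cre over no Cre in crushed and uncrushed animals (left) and for crushed over uncrushed with and without Cre (right). Filled points passed an adjusted p of 0.05 by edgeR's quasi-likelihood test. On the left Chrm2 lies at 1.92 and 2.65 and Chrna4 at -0.72 and -1.49, and on the right no point is filled.

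Levels of different genes were compared per kilobase of effective length, and the annotation behind these lengths is not stated. The deposited lengths of Chrna7 (2091 bases), Chrna3 (3123) and Chrnb2 (5384) are shorter than the longest GENCODE M21 transcripts (2814, 4358 and 6399), so the order of near neighbours, including Chrna7 and Chrna4, and the ratios between genes depend on the model used. In Cre crushed libraries the order was Chrm2 at 22.0 ± 1.04 CPM per kb, Chrnb2 at 5.48 ± 0.0207, Chrna7 at 4.14 ± 1.27, Chrna4 at 3.63 ± 0.57, Chrna3 at 1.37 ± 0.122 and Chrm3 at 0.298 ± 0.14, where only Chrna7 and Chrna4 overlapped as neighbours. In no-Cre crushed libraries Chrm2 (6.43 ± 0.437 CPM per kb) and Chrna4 (5.96 ± 0.251) overlapped at the top, and Chrnb2 followed at 2.74 ± 0.216. In Cre uncrushed libraries Chrm2 led at 22.1 ± 5.74 CPM per kb, Chrnb2 (7.03 ± 1.13) and Chrna7 (5.98 ± 1.28) overlapped, and Chrna4 came next at 2.40 ± 0.0903. In no-Cre uncrushed libraries Chrna4 led at 6.43 ± 1.82 CPM per kb, ahead of Chrnb2 (4.04 ± 0.42) and Chrm2 (3.47 ± 0.999), which overlapped. Thus the most abundant receptor mRNA per length was Chrm2 in tagged RNA of both states, and Chrna4 stood first or level with the first in untagged RNA.

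A ratio of 2 genes within a library does not depend on how libraries are scaled. The ratio of Chrna4 to Chrnb2, per length, was 0.591 and 0.734 with Cre in crushed animals, against 2.00 and 2.37 without. In uncrushed animals it was 0.298 and 0.394 with Cre, against 1.19 and 2.06 without. The ranges did not overlap, so Chrna4 stood below its partner in every tagged library and above it in every untagged one. The geometric mean was 0.475 over the 4 Cre and 1.85 over the 4 no-Cre libraries, a log2 difference of -1.96. Because these ratios were chosen with the levels known, they are given as a description with no test.

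Ratios to Chrnb2 of the other genes separated the libraries less. The ratio of Chrm2 to Chrnb2 had a geometric mean of 3.53 with Cre and 1.41 without, but the value of 2.30 in Cre uncrushed animal 10 lay below the 2.61 of no-Cre crushed animal 58. The ratio of Chrna3 to Chrnb2 had geometric means of 0.195 with Cre and 0.0996 without, with overlap. The ratio of Chrna7 to Chrnb2 was 0.592 to 1.1 in Cre libraries and 0.561 to 0.904 in no-Cre libraries, so these genes stood in a similar proportion with and without the tag.

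**Figure D3:**
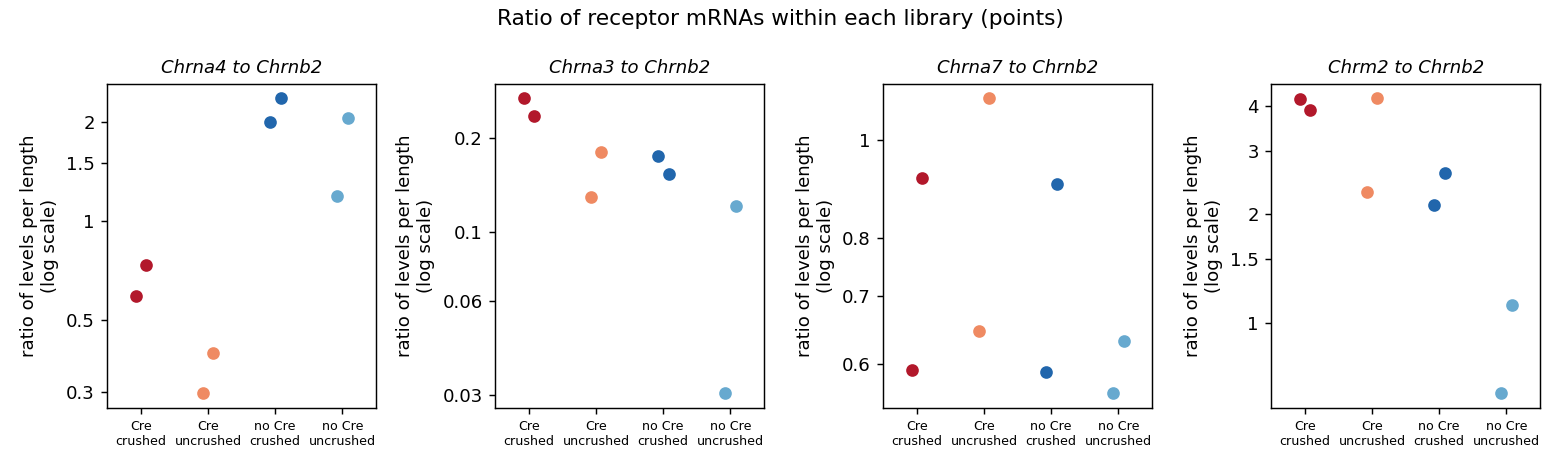
Ratio of each receptor mRNA to Chrnb2 within each library, per length (log axis, each panel with its own range), by group. The Chrna4 ratio is at most 0.734 in Cre libraries and at least 1.19 in no-Cre libraries, and the other ratios overlap.

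The crush comparison with Cre asked whether receptor mRNAs on tagged ribosomes changed after nerve injury. None of the 6 tested genes was called, where 0.0723% of all genes were called (11 of 15208, 0.0395% higher and 0.0329% lower), so few calls of any kind were made. By edgeR 1 of the 6 had an unadjusted p under 0.05, as had 1421 of all 15208 genes, and DESeq2 called 0 of the 6. Chrm2 averaged 121 ± 6.49 CPM in Cre crushed and 121 ± 31.6 CPM in Cre uncrushed libraries, with a log2 difference of -0.01 ± 0.25. Chrna4 had the smallest p of the 6: its Cre crushed values of 14.18 and 17.72 CPM lay above the Cre uncrushed values of 9.76 and 10.42 CPM (log2 0.66 ± 0.29, unadjusted p = 0.041, adjusted p = 0.514). The Chrna4 to Chrnb2 ratio was also higher in both Cre crushed libraries than in both Cre uncrushed libraries, with the values given above, whereas the no-Cre crushed and uncrushed ratios overlapped. Such a separation was not particular to Chrna4. The Chrna3 to Chrnb2 ratio was higher in crushed libraries with Cre (0.267 and 0.234, against 0.129 and 0.18) and without (0.175 and 0.153, against 0.0304 and 0.121). The Chrm2 to Chrnb2 ratio was higher in crushed libraries only without Cre (2.12 and 2.61, against 0.64 and 1.12).

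Chrnb2 differed by -0.36 ± 0.24 (28.6 ± 0.111 CPM in Cre crushed and 36.7 ± 5.89 CPM in Cre uncrushed libraries) and Chrna7 by -0.54 ± 0.38 (7.93 ± 2.44 CPM in Cre crushed and 11.5 ± 2.47 CPM in Cre uncrushed libraries), with adjusted p of 0.73 and 0.746 by edgeR. Chrna3 (0.36 ± 0.57) and Chrm3 (0.23 ± 0.95) had standard errors larger than their differences. Astrocyte marker sums were 342 to 488 CPM in Cre crushed and 190 to 207 CPM in Cre uncrushed libraries, and 5 endothelial and pericyte markers summed to 15.1 to 20.0 CPM in Cre crushed and 6.72 to 8.07 CPM in Cre uncrushed libraries. Oligodendrocyte sums were 1080 to 1790 CPM in Cre crushed and 701 to 866 CPM in Cre uncrushed libraries, and sums of 6 microglial markers 23.7 to 24.3 CPM in Cre crushed and 17.4 to 20 CPM in Cre uncrushed libraries. Motor neuron sums were lower, at 1690 to 1850 CPM in Cre crushed and 1920 to 2060 CPM in Cre uncrushed libraries, and interneuron and Schwann cell sums overlapped. The part of these marker differences in the receptor values was not tested.

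Without Cre, the crush comparison also called none of the 6, against 0.0723% called over all genes (0.0197% up and 0.0526% down). By edgeR 1 of the 6 was at an unadjusted p under 0.05, as were 1941 of all 15208 genes, and DESeq2 called 0 of the 6. Chrm2 came nearest: 32.03 and 31.65 CPM in no-Cre crushed libraries, against 15.21 and 22.97 CPM in no-Cre uncrushed libraries, a log2 difference of 0.72 ± 0.28 (unadjusted p = 0.0244, adjusted p = 0.337). With library size alone as the scale the difference was called at 1.67 ± 0.43 (adjusted p = 0.0447), where the median over all genes was itself 0.94. With mitochondrial ribosomal RNA left out of the library size it was called at 1.37 ± 0.31 (adjusted p = 0.0338), where the median over all genes was 0.62. Motor neuron marker sums were 63.2 and 128 CPM in crushed and 163 and 117 CPM in uncrushed animals without Cre. Astrocyte sums were 2410 to 3060 CPM in no-Cre crushed and 1410 to 2370 CPM in no-Cre uncrushed libraries, and microglial sums 123 to 151 and 82.3 to 93.7 CPM. Other sums were lower in no-Cre crushed libraries: oligodendrocyte (4410 to 6200 against 6630 to 7650 CPM), interneuron (468 to 591 against 599 to 665 CPM) and sensory neuron sums (0.95 to 23.5 against 28.6 to 33.1 CPM). Endothelial, Schwann cell and muscle sums overlapped. The part of these differences in the Chrm2 values was not tested.

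The difference between the crush effects with and without Cre was tested as an interaction. It was called for 0 of the 6 genes by edgeR and by DESeq2, none had an unadjusted p under 0.05, and it was called for 0 of all genes by edgeR (0% called, 905 at an unadjusted p under 0.05) and 15 by DESeq2. The estimates were 0.78 ± 0.40 for Chrna4 (adjusted p = 0.873) and -0.73 ± 0.37 for Chrm2 (adjusted p = 0.863). The smaller Cre to no-Cre fold of Chrm2 in crushed than in uncrushed animals is therefore not shown to be a difference between the states. The crushed and uncrushed comparisons and the crush comparisons share libraries, so their values are set side by side and not counted as separate evidence.

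The other 13 receptor subunit genes were nearly absent. Together they summed to 4.62 to 7.44 CPM with Cre and 11.5 to 13 CPM without in crushed animals, and to 3.41 to 9.11 CPM with Cre and 4.81 to 6.63 CPM without in uncrushed animals. Only Chrna1, Chrnb1 and Chrnb4 passed the filter. Chrnb4, the usual partner of Chrna3, had 60 counts with Cre and 18 without in crushed animals, 30 with Cre and 5 without in uncrushed animals, and was not called (crushed 0.70 ± 0.76, uncrushed 1.13 ± 0.91).

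Chrna1, the alpha subunit of the receptor on skeletal muscle, was the 1 gene of these called. It had 0.89 and 1.82 CPM in Cre crushed libraries, against 6.51 and 4.16 CPM in no-Cre crushed libraries (log2 -1.98 ± 0.64, adjusted p = 0.0286). The summed level of 5 skeletal muscle markers was 10.0 and 0.949 CPM in the same Cre crushed libraries and 228 and 56.0 CPM in the same no-Cre crushed libraries, and their part in the Chrna1 call was not tested. In uncrushed animals Chrna1 was not called (0.88 to 1.04 CPM with Cre and 1.56 to 1.60 CPM without, log2 -0.72 ± 0.77, adjusted p = 0.469). There the muscle sums were 10.8 and 185 CPM with Cre and 126 and 32.3 CPM without, and the muscle list's median log2 fold change was 0.08.

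Genes that help nicotinic receptors fold or tune their opening were mostly higher with Cre. Of 8 such genes, 5 were called higher and 1 lower in crushed animals (against 21.6% higher and 21.3% lower over all genes), and 6 higher and 1 lower in uncrushed animals (against 20.6% higher and 21.9% lower over all genes). The median log2 fold changes were 1.00 in crushed and 1.18 in uncrushed animals, where those of all genes were -0.08 and -0.03. Lypd6, a Ly6-family modulator of nicotinic receptors, had 43.93 and 36.16 CPM in Cre crushed libraries against 5.97 and 7.50 CPM in no-Cre crushed libraries, and 35.39 and 37.59 CPM in Cre uncrushed against 1.56 and 2.94 CPM in no-Cre uncrushed libraries. Its log2 fold changes were 2.57 ± 0.30 (adjusted p = 0.000159) in crushed and 3.95 ± 0.37 (adjusted p = 5.37e-05) in uncrushed animals. Tmem35a, which encodes the chaperone NACHO, needed for assembly of the Chrna7 channel, was higher by 1.79 ± 0.24 in crushed and 1.95 ± 0.25 in uncrushed animals. Lynx1, a membrane-anchored brake on nicotinic receptors, was higher by 1.81 ± 0.30 and 1.50 ± 0.29, and Ric3, another Chrna7 chaperone, by 0.90 ± 0.23 in crushed animals. Lypd1 was lower, by -1.14 ± 0.35 in crushed and -1.13 ± 0.36 in uncrushed animals.

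Proteins that sit with the M2 receptor at the C-bouton were likewise mostly higher with Cre. Of 5 tested, 3 were called higher and 0 lower in crushed animals, where 21.6% of all genes were higher and 21.3% lower. In uncrushed animals 3 were higher and 1 lower, where 20.6% of all genes were higher and 21.9% lower. The median log2 fold change was 1.65 in both states, where those of all genes were -0.08 and -0.03. Nrg1, a growth factor that gathers beneath these synapses, had 243.94 and 207.60 CPM in Cre crushed libraries against 42.61 and 41.15 CPM in no-Cre crushed libraries (log2 2.43 ± 0.23). In uncrushed animals it had 236.13 and 276.78 CPM with Cre and 38.99 and 42.74 CPM without (log2 2.65 ± 0.23). Of the SK channels that carry the afterhyperpolarization, Kcnn2 was lower in uncrushed animals (-1.08 ± 0.32, adjusted p = 0.0196) and was not called in crushed animals (-0.36 ± 0.31), and Kcnn3 was not called in either.

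Downstream of the receptors the directions were mixed. Of 8 Gi/o and GIRK genes tested, 2 were called higher and 1 lower in crushed animals (against 21.6% higher and 21.3% lower over all genes), and 2 higher and 2 lower in uncrushed animals (against 20.6% higher and 21.9% lower over all genes). These counts are near those shares, and the medians were 0.46 in crushed and 0.27 in uncrushed animals. Gnao1, the neuronal Go alpha subunit, was higher by 1.23 ± 0.22 in crushed and 0.92 ± 0.22 in uncrushed animals, and Gnaz by 1.61 ± 0.29 and 1.16 ± 0.30. Gnai2, a widely expressed Gi alpha subunit, was lower by -0.89 ± 0.26 and -1.75 ± 0.27. The GIRK channel gene Kcnj6 was lower in uncrushed animals (-1.73 ± 0.41, adjusted p = 0.00655) and missed the threshold in crushed animals (-1.06 ± 0.41, adjusted p = 0.0537).

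Of 16 Gq and M-current genes, 5 were called higher and 5 lower in crushed animals (against 21.6% higher and 21.3% lower over all genes), and 4 higher and 2 lower in uncrushed animals (against 20.6% higher and 21.9% lower over all genes). The medians were -0.01 in crushed and 0.29 in uncrushed animals, so the counts and medians are near those of all genes. Gna14, a Gq-family alpha subunit, had 54.88 and 55.85 CPM in Cre crushed libraries against 2.71 and 3.17 CPM in no-Cre crushed libraries, and 49.31 and 50.45 CPM in Cre uncrushed against 5.85 and 10.42 CPM in no-Cre uncrushed libraries. It was higher by 4.23 ± 0.32 (adjusted p = 3.12e-05) in crushed and by 2.58 ± 0.30 (adjusted p = 0.000131) in uncrushed animals. Itpr2, an inositol trisphosphate receptor, was lower by -2.34 ± 0.39 in crushed and -2.68 ± 0.42 in uncrushed animals. The M-current genes Kcnq3 (-1.11 ± 0.26) and Kcnq5 (-2.13 ± 0.52) were lower in crushed animals and were not called in uncrushed animals (-0.23 ± 0.26 and -0.59 ± 0.52).

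Of 11 receptor kinase, arrestin and RGS genes, 3 were called higher and 4 lower in crushed animals (against 21.6% higher and 21.3% lower over all genes), and 3 higher and 3 lower in uncrushed animals (against 20.6% higher and 21.9% lower over all genes). The medians were -0.57 in crushed and -0.27 in uncrushed animals. Rgs4, which speeds the shut-off of Gi/o and Gq, had 398.82 and 403.25 CPM in Cre crushed libraries against 33.52 and 84.80 CPM in no-Cre crushed libraries, and was higher by 2.76 ± 0.37 in crushed and 2.73 ± 0.38 in uncrushed animals. Arrb1, a beta-arrestin, was lower by -1.09 ± 0.22 in crushed and -1.31 ± 0.22 in uncrushed animals, and Grk3, a receptor kinase, by -1.52 ± 0.32 and -1.86 ± 0.34. Another RGS gene, Rgs8, was lower by -1.50 ± 0.36 and -2.04 ± 0.38.

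Genes that make, take up and break down the transmitter itself had the highest median of the acetylcholine signalling lists plotted here, at 2.08 in crushed and 2.57 in uncrushed animals. Some of these genes, Chat among them, are also in the motor neuron marker list, and Chat drives Cre in these animals. The median is therefore not separate from that marker level, and it was not computed without these genes. Of 7 tested, 5 were called higher and 0 lower in crushed animals (against 21.6% higher and 21.3% lower over all genes), and 5 higher and 1 lower in uncrushed animals (against 20.6% higher and 21.9% lower over all genes). Ache, the enzyme that splits acetylcholine, was higher by 1.93 ± 0.24 in crushed and 2.03 ± 0.25 in uncrushed animals, and Prima1, which anchors that enzyme in the neuronal membrane, by 2.08 ± 0.44 and 2.57 ± 0.49. Bche, the related butyrylcholinesterase, was lower in uncrushed animals (-2.26 ± 0.62, adjusted p = 0.0131) and was not called in crushed animals (-1.40 ± 0.56, adjusted p = 0.0621). No gene of any of these lists was called in a crush comparison or in the interaction. Over all genes only 0.0723% were called in each crush comparison and 0% in the interaction, so this absence says little about these lists.

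**Figure D4:**
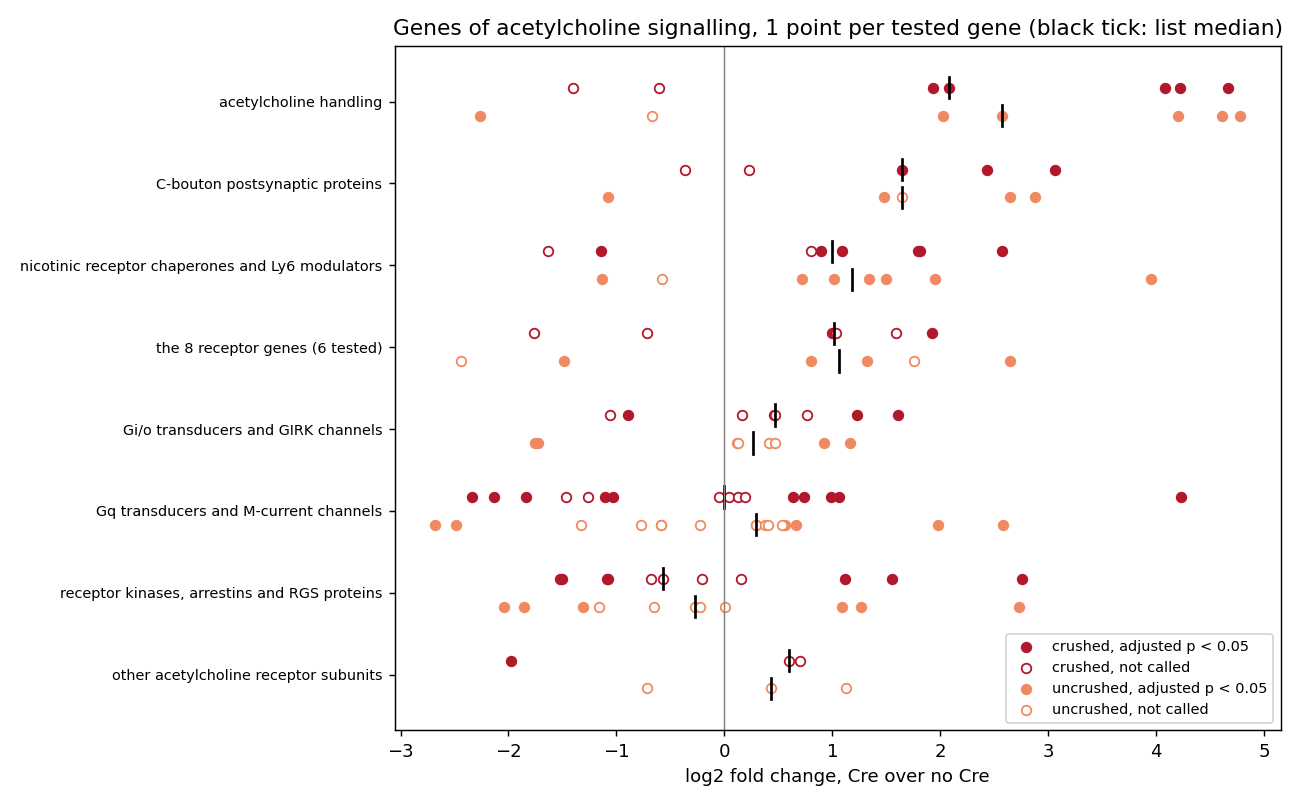
Log2 fold change of Cre over no Cre (horizontal axis) for every tested gene of the receptor set and of the lists around it, in crushed and uncrushed animals. Filled points passed an adjusted p of 0.05, and black ticks mark list medians. Medians run from 2.08 (crushed) and 2.57 (uncrushed) for acetylcholine handling to -0.57 and -0.27 for receptor kinases, arrestins and RGS proteins. The acetylcholine handling list shares genes, Chat among them, with the motor neuron markers.

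The genes whose levels followed each receptor gene most closely were taken by Pearson's r of log2 CPM over the 8 libraries, which is dominated by the difference between Cre and no-Cre libraries. For Chrm2 they were Ube4b (r = 0.997) and Ap2b1 (0.996), for Chrnb2 Lsm7 (0.994) and Rtn4ip1 (0.990), and for Chrna7 Nudt21 (0.978) and Sos1 (0.976). Chrna3 was closest to Tufm (0.996) and Idh3g (0.995), Chrna4 to Evc and Cfp (both 0.992), and Chrm3 to C5ar2 and Dpy19l3 (both 0.994). With 15208 genes to choose from and 8 libraries in 4 groups, such values are a description only.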

How the data were processed

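Gene tables of 8 libraries were deposited with expected counts per gene, which the authors estimated with Bowtie2 2.2.0 and RSEM 1.2.12 per the submitters' processing notes. The deposited effective length of each gene (type other, in bases) served only for levels per kilobase. The sources used here state neither a genome build nor an annotation. Symbols were matched to 37607 of 38924 identifiers (96.6%). Of 127 listed symbols, 126 were found, and Slc18a3 was not.

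Counts were rounded and grouped by title. edgeR 4.0.16 (R 4.3.3) was used with filterByExpr (minimum count 10, minimum total 15), TMM scaling and quasi-likelihood fits of 1 mean for each group, giving 4 residual degrees of freedom. The comparison over all libraries had Cre and crush state as terms and 5 residual degrees of freedom. Tests were two-sided, and a call needed an adjusted p (Benjamini-Hochberg) under 0.05 over 15208 genes. Titles give each library its own number, taken here as the animal, and p-values measure only the spread between these libraries. The script was tested on simulated data. The standard error is the log2 fold change over the square root of its F statistic.

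Members and lists were chosen with earlier results of these data known. All 8 members are named in every comparison. From each other list, up to 4 called genes per comparison may be named, by smallest p, and for each tested member the 2 genes most alike over 8 libraries with a mean of at least 1 CPM (log2 CPM with a prior count of 2, predicted genes left out). Lypd1, Prima1, Bche, Kcnn3, Chrnb1 and Chrnb4 were named outside that rule after their values were seen, and 3 genes that the rule would name are not reported here. Alternatives were DESeq2 1.42.0, its size factors, library size alone, no filter, only the compared groups, grouping by genotype entry, age as a covariate, and dropping both contradictory libraries or each library in turn. Library size without mitochondrial ribosomal RNA was added after seeing the data.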

Additional observations from a re-analysis of the deposited data

How the results depend on the processing

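No paired analysis was possible because the groups share no animal number. Grouping by the genotype entry left 0 receptor genes called over all libraries, in crushed and in uncrushed animals, and in uncrushed animals it turned the log2 fold changes of Chrm2 to -0.54 and of Chrna7 to -0.29. It called 0 of all genes in each of these comparisons. No crushed library changes group under this entry, so the crushed comparison lost its calls only through the fit shared with the uncrushed libraries. In crushed animals, where 2 were called (6521 of all genes), a fit of only the compared groups called 4 (7396), leaving out both contradictory libraries 4 (7259), age as a covariate 1 (2758), and leaving out 1 library in turn 1 to 5 (2733 to 7392). In uncrushed animals, where 4 were called (6468 of all genes), a fit of only the compared groups called 2 (5170), leaving out both contradictory libraries 2 (3299), and leaving out 1 library in turn 2 to 4 (3802 to 6512). Over all libraries, leaving out 1 library called 5 or 6 (7633 to 9041 of all genes, against 9102 with every library). For crush without Cre, library size alone (1204 of all genes) and library size without mitochondrial ribosomal RNA (1401) each called 1, which was Chrm2, where the TMM scaling called 0 (11 of all genes). Apart from that shared fit and the fewer samples in the fits without libraries, the cause of these changes was not tested. In the fits of 1 mean for each group, age as a covariate takes up only the difference between Cre crushed animals 35 and 52. Such a fit cannot test a dependence on age. Where a group is left with 1 library, that library is assumed to vary like the others.

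Chrm2 was called higher with Cre under every alternative except grouping by the genotype entry, at 1.70 to 2.07 in crushed and 2.15 to 3.33 in uncrushed animals. Of 595 single-gene values under the alternatives, 546 kept their side of the threshold, 32 lost a call and 15 gained one. In the other 2 the direction of a called difference was reversed. Values called in neither fit were counted among the 546 even where their sign changed, as for Chrm2 in the crush comparison with Cre (-0.26 to 0.41). Counts limit Chrm1, Chrm3, Chrm4 and Chrna3, and groups of 2 limit every crush comparison.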
